A study of Arabidopsis thaliana with 6 samples.

Results

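EPL1A, EPL1B and YAF9B are the subunits of the Arabidopsis NuA4 complex that appear among the genes listed as changed between 14-day-old seedlings labelled epl1ab, genotype epl1a epl1b, and seedlings of the wild type Col-0. They were taken by locus (AT1G16690, AT1G79020 and AT2G18000), which gave 3 genes out of 5330 in the deposited tables. Both genotypes have the Columbia-0 background and were grown alike, on medium with 1% sucrose at 22 °C in days of 16 h light and 8 h dark, and whole seedlings were taken 8 h after dawn. Each genotype had 3 libraries of ribosome-depleted total RNA, from 3 independent experiments per the series design. The labels name the epl1ab plants a double mutant, but the kind and position of the alleles were not given in the sources used here. Nor do they give the number of plants behind a library. The series addresses how transcription in the nucleus and the plastid is kept in step while chloroplasts form, and NuA4 is the complex it studies.

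NuA4 is a histone acetyltransferase complex that places acetyl groups on the tail of histone H4, and in plants also on the histone variant H2A.Z. Its catalytic subunits in Arabidopsis are HAM1 and HAM2, members of the MYST family. Enhancer of Polycomb-like proteins, known best from Epl1 of budding yeast, join the catalytic subunit to the rest of the complex and let it act on nucleosomes. Arabidopsis has a pair of them, EPL1A and EPL1B. YAF9 proteins carry a YEATS domain, a fold that binds acylated lysines on histones, and in yeast Yaf9 is shared between NuA4 and the SWR1 complex that deposits H2A.Z. YAF9A and YAF9B are the Arabidopsis copies, and the deposited table names YAF9B by its other symbol, TAF14.

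Levels here are normalised reads, that is reads of a gene divided by the scaling factor of the library, with Col-0 replicate 1 set to 1. Reads in listed genes summed to between 7355421 and 8625707 in the epl1ab-labelled libraries and between 9265086 and 10938542 in the Col-0 libraries, and these sums are not library depths. Leaf RNA was present in every library: GLK1, a transcription factor of photosynthesis genes, had 1881 to 1954 normalised reads in the epl1ab-labelled libraries and 6857 to 7108 in Col-0. LHCA6, the other gene checked for leaf tissue, was less even. It had 549.7, 372.3 and 296.2 normalised reads in epl1ab-labelled replicates 1, 2 and 3, against 3947 to 4206 in Col-0. Seed maturation genes set the epl1ab-labelled libraries apart from one another. The 15 listed of 16 such genes, all of them listed higher, summed to 1172, 204923 and 297253 normalised reads in epl1ab-labelled replicates 1, 2 and 3, against 410, 373.8 and 43.9 in Col-0 replicates 1, 2 and 3. The log2 fold changes of the 3 NuA4 subunits are therefore also given for epl1ab-labelled replicate 1 alone.

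The EPL1 genes are close copies on chromosome 1. EPL1A lies at 5705897 to 5709563 on the plus strand and EPL1B at 29727044 to 29730593 on the minus strand (TAIR10). The RefSeq annotation of TAIR10.1 has the same start and end for both. It gives EPL1A 13 exons with 1950 exonic bases and EPL1B 12 exons with 2134, and each coding sequence is spread over 12 exons, 1320 bases long in EPL1A and 1362 in EPL1B. Over 1314 aligned coding bases, 80.4% were identical. The longest run without a difference was 40 bases, shorter than the 50-base reads of the study. Of the 1901 windows of 50 bases along the EPL1A transcript and the 2085 along the EPL1B transcript, 0 were shared. Each had 27 windows that came within 2 mismatches of the other gene, which is 1.42% of EPL1A and 1.29% of EPL1B. The closest windows, shown because they are where a read is hardest to place, differ at 1 base, in capitals. They run 5′ to 3′ on the coding strand and cross a splice junction, from chr1:5706832-5706957 on the plus strand in EPL1A and chr1:29729573-29729718 on the minus strand in EPL1B.
EPL1A: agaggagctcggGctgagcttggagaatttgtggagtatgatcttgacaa
EPL1B: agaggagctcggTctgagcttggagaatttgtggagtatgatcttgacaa
Within exons, each of the 1324 windows of EPL1A and the 1557 of EPL1B occurred once in the genome. A read without errors therefore belongs to one of the copies, and how the authors' aligner treated mismatches was not given in the sources used here.

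EPL1A, the first of the genes named in the mutant label, was lower in the epl1ab-labelled seedlings. It had 148, 126 and 148 reads in epl1ab-labelled replicates 1, 2 and 3, against 360, 352 and 298 in Col-0 replicates 1, 2 and 3. After scaling these became 128.1, 121.5 and 123.8 normalised reads in the epl1ab-labelled libraries and 360, 378.1 and 363.6 in Col-0. The groups did not overlap, which the authors' selection of genes on these libraries favours. The share of all listed genes without overlap is not given here, so separation is not read as a trait of the subunits. Within each group the libraries lay close together. The means were 124.5 ± 3.34 in the epl1ab-labelled libraries and 367.2 ± 9.59 in Col-0 (SD, n = 3 each), a 2.95-fold fall that left EPL1A reads in all 3 epl1ab-labelled libraries. In whole seedlings, fewer cells that use a gene and less of its RNA per cell cannot be told apart, here and for each gene below. By edgeR's quasi-likelihood test this was a log2 fold change of -1.56 ± 0.11 (SE; Benjamini-Hochberg adjusted p = 9.34e-06). Over the 9 pairings of an epl1ab-labelled with a Col-0 library it ranged from -1.64 to -1.49. In epl1ab-labelled replicate 1 alone it was -1.52.

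EPL1B, the other gene named in the mutant label, was far higher in the epl1ab-labelled seedlings. The label gives a genotype and not an RNA level. It had 19673, 17621 and 20469 reads in epl1ab-labelled replicates 1, 2 and 3, and 743, 709 and 536 in Col-0 replicates 1, 2 and 3. After scaling these were 17029, 16996 and 17128 normalised reads in the epl1ab-labelled libraries and 743, 761.6 and 654.0 in Col-0. Every epl1ab-labelled library was more than 20 times as high as every Col-0 library, though separation as such is favoured by the authors' selection. The means were 17051 ± 68.8 in the epl1ab-labelled libraries and 719.5 ± 57.5 in Col-0 (SD, n = 3 each). The log2 fold change was 4.57 ± 0.09 (SE; edgeR adjusted p = 9.12e-07), a 23.7-fold rise. It ranged from 4.48 to 4.71 over the 9 library pairings, and in epl1ab-labelled replicate 1 alone it was 4.56. The tables hold 1 number per gene and library, so they do not show where along EPL1B these reads lie or whether they come from an intact transcript. A high read count does not contradict the genotype. Because the alleles are not described in the sources used here, the libraries are called epl1ab-labelled throughout.

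**Figure D1:**
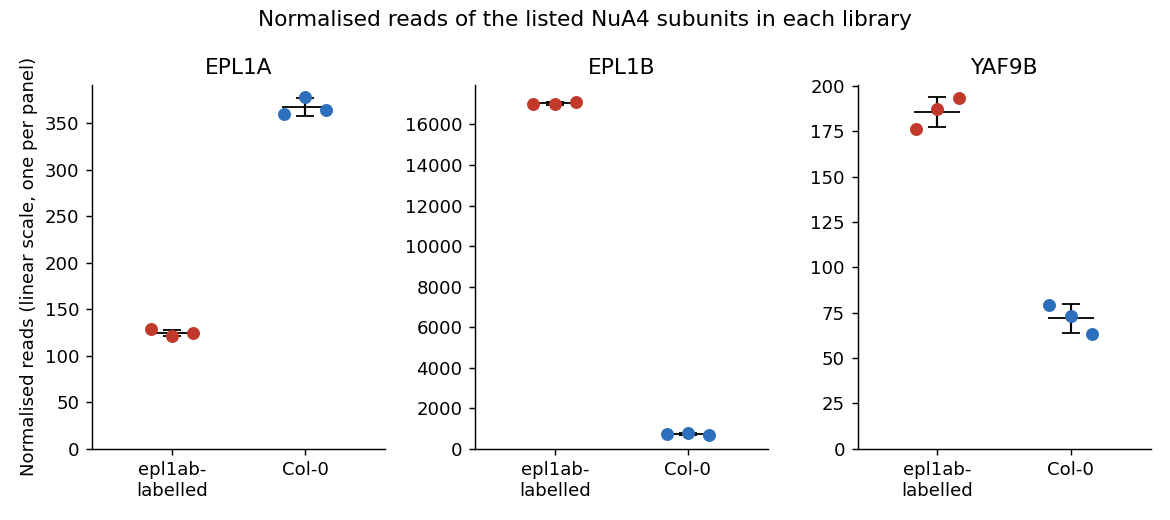
Normalised reads of EPL1A, EPL1B and YAF9B (linear vertical axis from 0, a separate scale per panel) in the 3 epl1ab-labelled libraries (red) and the 3 Col-0 libraries (blue). Points are libraries and bars give the mean ± SD. EPL1A is lower in the epl1ab-labelled libraries, at about 124.5 against 367.2 in Col-0, while EPL1B and YAF9B are higher there. The groups overlap in no panel, which the authors' selection of genes on these libraries favours.

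Among genes listed higher, EPL1B combined a high starting level in reads, not corrected for gene length, with a large fold. Of the 3524 genes listed higher, 467 stood above EPL1B in the authors' deposited table, which gives it a log2 fold change of 4.56. Among the 237 genes listed higher whose Col-0 mean was at least that of EPL1B, 1 reached 4.56, and this was EPL1B itself. Both limits were taken from EPL1B, so it was bound to be counted. Its share of reads in listed genes was 0.261%, 0.240% and 0.237% in epl1ab-labelled replicates 1, 2 and 3 and 0.00679%, 0.00672% and 0.00579% in Col-0 replicates 1, 2 and 3. EPL1A was an ordinary member of its table: 788 of the 1806 genes listed lower had a lower log2 fold change, and the median of the genes listed lower was -1.45 in the authors' deposited table.

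**Figure D2:**
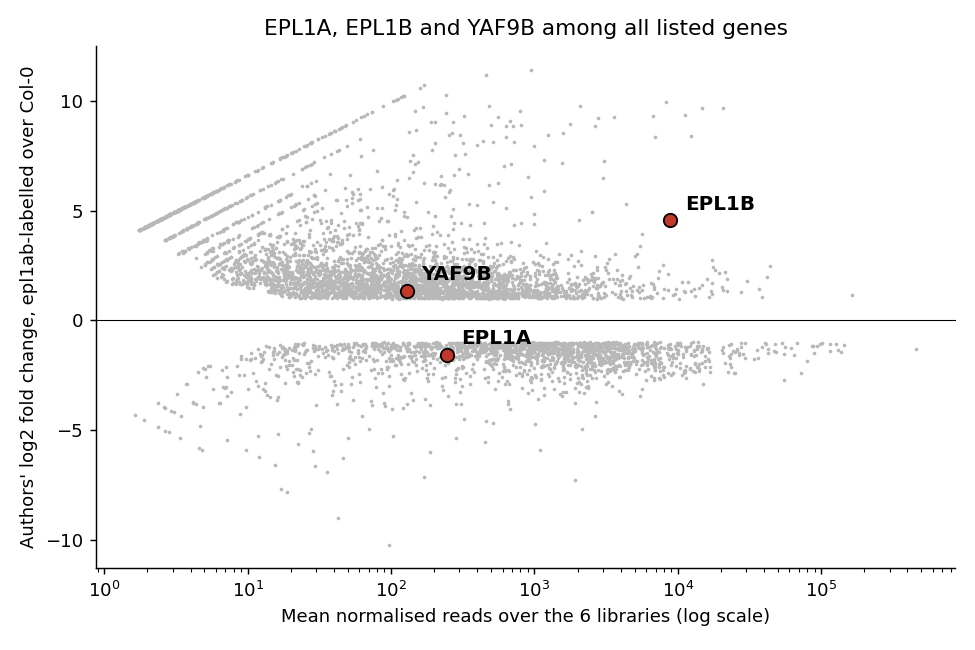
Log2 fold change of epl1ab-labelled over Col-0 from the authors' deposited table (vertical axis) against the mean of normalised reads over the 6 libraries (horizontal axis, log scale) for the 5330 listed genes, in grey, with EPL1A, EPL1B and YAF9B in red. No gene lies between -1 and 1 because of the authors' threshold. EPL1B, at 4.56, stands to the right of nearly all genes with a fold change of its size, while YAF9B at 1.37 and EPL1A at -1.56 lie in the dense bands.

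EPL1B also varied little between the epl1ab-labelled libraries. Its coefficient of variation was 0.403% there and 8.00% in Col-0, against 0.722% and 3.90% from counting reads alone. Of 98 listed genes within 2-fold of its mean level in the epl1ab-labelled libraries, with a median coefficient of variation of 13.2%, 0 varied as little as EPL1B or less. EPL1A had a coefficient of variation of 2.68% in the epl1ab-labelled libraries and 2.61% in Col-0, below the 8.45% and 5.47% that counting gives. YAF9B had 4.55% in the epl1ab-labelled libraries and 10.9% in Col-0, against 6.92% and 12.3% from counting. With 3 libraries a group, such spreads are themselves uncertain. The difference in seed maturation reads between the epl1ab-labelled libraries had no counterpart of like size in these genes. YAF9B did rise in the same order, with 176.6, 187.1 and 193.3 normalised reads in epl1ab-labelled replicates 1, 2 and 3. Replicate 1 differed from the mean of replicates 2 and 3 by a log2 value of 0.06 for EPL1A, -0.0028 for EPL1B and -0.11 for YAF9B.

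Compared per length, the balance of the EPL1 pair differed between the genotypes. Lengths were those of annotated exons, and whether reads were counted over exons alone was not given in the sources used here. Levels and ranks between genes are therefore less certain than differences between the groups. Per kilobase of exon, EPL1A had 63.8 ± 1.71 normalised reads in the epl1ab-labelled libraries and 188.3 ± 4.92 in Col-0 (SD, n = 3 each). EPL1B had 7990 ± 32.2 per kilobase in the epl1ab-labelled libraries and 337.2 ± 27.0 in Col-0. Ranked by this level among 5297 listed nuclear genes, EPL1B stood at place 107 in the epl1ab-labelled libraries and at place 1530 in Col-0. YAF9B had 154.6 ± 7.04 per kilobase in the epl1ab-labelled libraries and 59.8 ± 6.54 in Col-0. The order by level was thus EPL1B, YAF9B, EPL1A in the epl1ab-labelled libraries and EPL1B, EPL1A, YAF9B in Col-0, and in both groups neighbours in the order did not overlap over the 3 libraries.

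The ratio of EPL1B to EPL1A per kilobase, which does not depend on scaling between libraries, was 121.5, 127.8 and 126.4 in epl1ab-labelled replicates 1, 2 and 3 and 1.89, 1.84 and 1.64 in Col-0 replicates 1, 2 and 3. EPL1A made up 0.793 ± 0.021% of the per-kilobase level of the pair in the epl1ab-labelled libraries and 35.9 ± 1.70% in Col-0 (SD, n = 3 each). The log2 ratio differed by 6.13 between the groups, higher in 3 of 3 epl1ab-labelled libraries than in any Col-0 library (exact permutation test, two-sided, p = 0.1, the smallest that 3 against 3 libraries allow). The authors had listed EPL1B as higher and EPL1A as lower on these same libraries. That selection all but fixes the separation, so the test adds nothing to the listing.

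Reads of both copies together rose as well, because EPL1B outweighed the fall of EPL1A. The sum of EPL1A and EPL1B was 17157, 17117 and 17252 normalised reads in epl1ab-labelled replicates 1, 2 and 3, against 1103, 1140 and 1018 in Col-0 replicates 1, 2 and 3. The ratio of the group means was 15.8, and the log2 difference was 3.98 (exact permutation test, two-sided, p = 0.1, again the smallest possible). EPL1B dominates the sum and was listed as higher on these libraries, so this test too adds nothing to the listing. This sum counts reads and does not measure functional transcript.

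**Figure D3:**
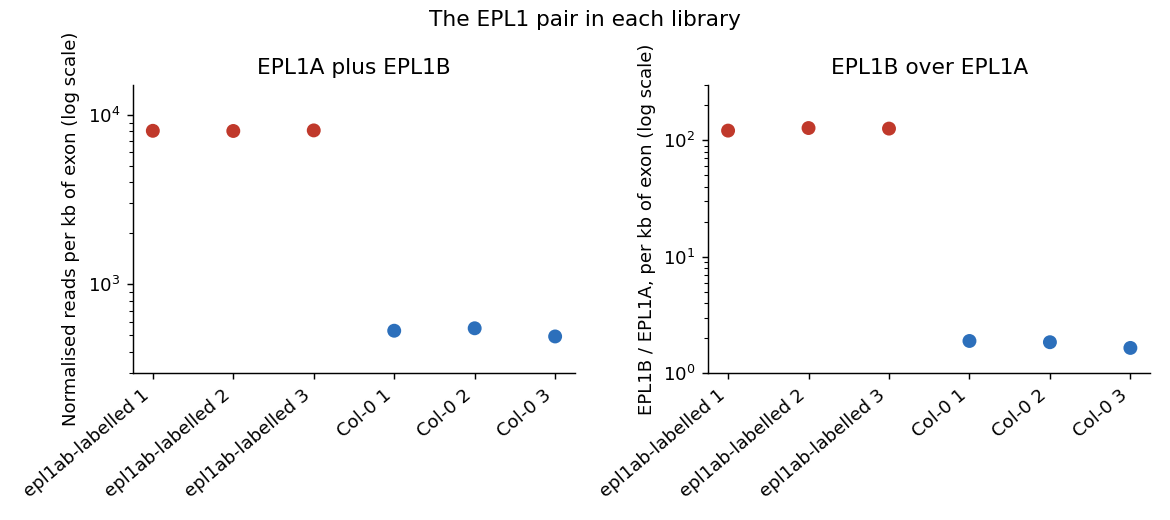
Summed level of EPL1A and EPL1B in normalised reads per kilobase of exon (left) and the ratio of EPL1B to EPL1A per kilobase (right), both on log axes, in each epl1ab-labelled library (red) and each Col-0 library (blue). The sum lies near 8054 in the epl1ab-labelled libraries and near 525.5 in Col-0, and the ratio is 121.5 to 127.8 in the epl1ab-labelled libraries and 1.64 to 1.89 in Col-0.

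YAF9B, the YEATS-domain subunit, was higher in the epl1ab-labelled seedlings from a low level. It lies on chromosome 2 at 7828976 to 7830898, plus strand (TAIR10). Of its 2 annotated transcripts the longer has 6 exons and 1184 bases, and the shorter has 609 bases. It had 204, 194 and 231 reads in epl1ab-labelled replicates 1, 2 and 3, and 79, 68 and 52 in Col-0 replicates 1, 2 and 3. These came to 176.6, 187.1 and 193.3 normalised reads in the epl1ab-labelled libraries and 79, 73.0 and 63.4 in Col-0. The lowest epl1ab-labelled library was more than 2 times the highest Col-0 library, and here too the authors' selection favours separation. The means were 185.7 ± 8.45 in the epl1ab-labelled libraries and 71.8 ± 7.85 in Col-0 (SD, n = 3 each), and the log2 fold change was 1.37 ± 0.15 (SE; edgeR adjusted p = 6.72e-05), a 2.58-fold rise. It ranged from 1.16 to 1.61 over the 9 library pairings and was 1.29 in epl1ab-labelled replicate 1 alone. Of the genes listed higher, 2678 stood above YAF9B in the authors' deposited table. The rise depends on the scaling: DESeq2 with size factors computed from the listed genes, which shift log2 fold changes by -1.11, gave 0.25 (adjusted p = 0.371).

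The other YAF9 copy, YAF9A on chromosome 5, is not analysed here. The coding sequences of YAF9B and YAF9A were 65.1% identical over 782 aligned bases and 0 windows of 50 bases lay within 2 mismatches of each other. Their closest coding windows differ at 12 positions, in capitals, and are shown against the single difference in the EPL1 pair. They run 5′ to 3′ on the plus strand, from chr2:7829940-7829989 for YAF9B and chr5:18489155-18489204 for YAF9A (TAIR10.1).
YAF9B: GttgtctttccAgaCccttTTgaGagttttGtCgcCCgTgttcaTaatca
YAF9A: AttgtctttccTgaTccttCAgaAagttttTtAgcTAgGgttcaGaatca

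All 3 subunits passed the edgeR test, with 2 higher and 1 lower, but so did 100% of the 4773 listed genes in the fit, since the authors had selected the genes on these libraries. Of the genes tested, 63.1% were called higher and 36.9% lower, and the calls on the subunits are therefore no more than the listing itself shows. Of the genes called by DESeq2, 46.7% were higher with size factors from the listed genes and 66.1% with the recovered factors. The 3 make up 3 of 18 NuA4 genes looked for, while 14.0% of the 37899 annotated nuclear genes were listed, so that their number is near that background. The median log2 fold change of the 3 was 1.37, against 1.26 over all genes tested. The other 15 are not analysed here, among them the catalytic HAM1 and HAM2, the scaffold EAF1A and EAF1B, the TRA1 proteins that contact transcription activators, and the ING, MRG and EAF6 and EAF7 subunits. Of 10 genes of the SWR1 complex and of H2A.Z, and of 8 histone H4 genes, 0 were listed in either direction, against 14.0% of all nuclear genes, and lists this short say little about their difference from it.

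Of 10 histone acetyltransferases outside NuA4, 2 were listed, both higher, where 14.0% of nuclear genes were listed and 3524 of the 5330 listed genes were higher; nothing is read from this count. HAC2, of the p300/CBP-type family, had 313.3, 250.8 and 225.9 normalised reads in epl1ab-labelled replicates 1, 2 and 3, against 3, 3.22 and 2.44 in Col-0 replicates 1, 2 and 3. Its log2 fold change was 6.44 ± 0.26 (SE; edgeR adjusted p = 1.10e-06), resting on 8 reads over the Col-0 libraries. HAF2, a TAF1-type protein of the general factor TFIID, had 51.9, 33.8 and 43.5 normalised reads in epl1ab-labelled replicates 1, 2 and 3, against 8, 7.52 and 7.32 in Col-0. Its log2 fold change was 2.48 ± 0.28 (SE; edgeR adjusted p = 8.07e-05). Both were higher in all 3 epl1ab-labelled libraries than in Col-0, where they were near the detection limit.

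Of 16 histone deacetylases, 2 were listed, both lower, a number near the 14.0% of nuclear genes listed. HDA14, a deacetylase found in organelles, the chloroplast among them, had 506.4, 413.8 and 425.9 normalised reads in epl1ab-labelled replicates 1, 2 and 3, and 1814, 2005 and 1887 in Col-0. Its log2 fold change was -2.08 ± 0.11 (SE; edgeR adjusted p = 2.56e-06). HDA18, which acts in root epidermis patterning, had 6.06, 5.79 and 5.02 normalised reads in the epl1ab-labelled libraries and 98, 70.9 and 65.9 in Col-0. Its log2 fold change was -3.78 ± 0.28 (SE; edgeR adjusted p = 1.03e-05). HDA18 has HDA5 as a close copy beside it. Of 2217 windows of 50 bases along HDA18, 25 are identical to HDA5, and 194, or 8.75%, come within 2 mismatches. The fold change of HDA18 also rests on 19 reads over the epl1ab-labelled libraries, so its value is less certain. The medians of both lists stand on 2 genes each, 4.46 for the acetyltransferases and -2.93 for the deacetylases.

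The genes on either side of the subunits were not among those listed. EPL1A and EPL1B sit in similar surroundings: in each case a gene for a DnaJ-domain chaperone lies before the EPL1 gene and a gene for an alpha-helical ferredoxin after it. A p300/CBP-type acetyltransferase gene lies further on, HAC1 as the next gene on the EPL1B side, and HAC12 after 1 more gene, AT1G16705, on the EPL1A side. The spacing is tight, with 4 bases from EPL1A to AT1G16680 and 60 to AT1G16700, and 15 bases from EPL1B to AT1G79010 and 48 to AT1G79030. None of these 4 adjacent genes, nor HAC12 or HAC1, is in the tables used here, and the same holds for both neighbours of YAF9B. No annotated gene overlaps any of the 3 subunit genes. The tenth gene before YAF9B is AT2G17930, the NuA4 subunit TRA1A, which is not analysed here.

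Among the 10 annotated genes on each side of the 3 subunits, 6 of 60 were listed, or 10%, against 14.0% of the 37899 annotated nuclear genes. Near EPL1B, 3 were listed. CAMS1, a triterpene synthase, had 136.3 ± 12.1 normalised reads in the epl1ab-labelled libraries and 44.0 ± 13.3 in Col-0, while AT1G78995 had 228.3 ± 45.9 in the epl1ab-labelled libraries and 1080 ± 93.7 in Col-0 (SD, n = 3 each). PSBR, a subunit of photosystem II, had 67352 ± 5883 normalised reads in the epl1ab-labelled libraries and 135731 ± 6673 in Col-0. Near EPL1A, 2 were listed, both higher. The non-coding RNA AT1G16635 had 25.7 ± 3.46 normalised reads in the epl1ab-labelled libraries and 7.55 ± 4.85 in Col-0. With DESeq2 and size factors of the listed genes, AT1G16635 was at 0.69 (adjusted p = 0.382), UP6 at 0.88 (adjusted p = 0.0527) and CAMS1 at 0.52 (adjusted p = 0.155) on the log2 scale. UP6 had 75.3, 183.3 and 354.8 in epl1ab-labelled replicates 1, 2 and 3 and 46.4 to 54 in Col-0. Unlike EPL1A, UP6 was highest where seed maturation reads were highest, and its log2 fold change of 2.04 (edgeR adjusted p = 0.00598) became 0.60 in replicate 1 alone. Near YAF9B, AT2G17972 had 255.1 ± 38.4 normalised reads in the epl1ab-labelled libraries and 1384 ± 47.2 in Col-0. Of the 6, 4 overlap another annotated gene, and whether reads were counted by strand was not given in the sources used here, so their values are uncertain.

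**Figure D4:**
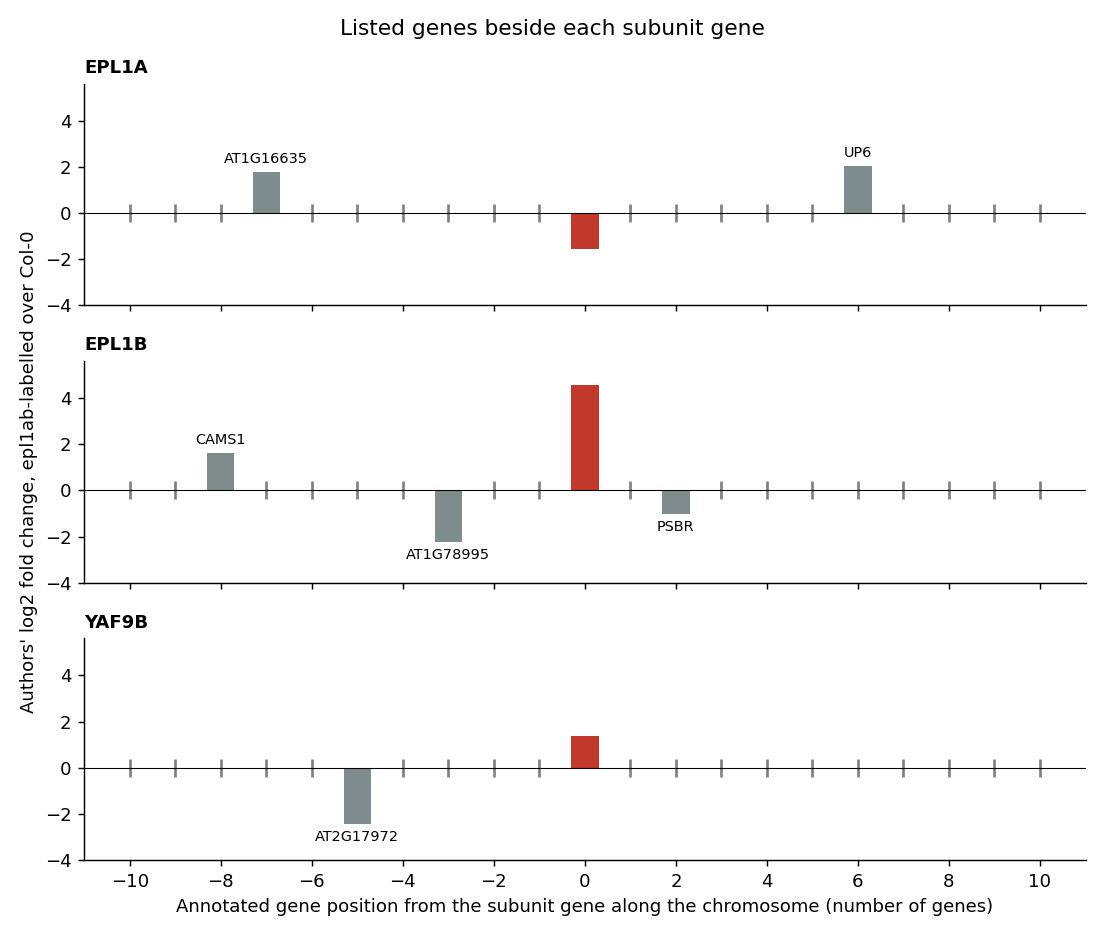
Log2 fold change of epl1ab-labelled over Col-0 from the authors' deposited table (vertical axis) for EPL1A, EPL1B and YAF9B (red bars) and for listed genes among the 10 annotated genes on each side (grey bars), by position in the order of genes along the chromosome. Ticks on the zero line mark genes that are not analysed here, which include the genes directly beside each subunit. The EPL1B bar at 4.56 stands between neighbours without a value.

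Genes whose profile over the 6 libraries lay nearest to each subunit were found by the distance between log2 normalised reads, each less its Col-0 mean, among listed genes with at least 50 normalised reads on average. The measure follows the size of the group difference and the small deviations of single libraries, and nearness is a description. Nearest to EPL1A, at distances of 0.050 to 0.087, were LIL3.2, a light-harvesting-like protein of the chloroplast, CCD1, a carotenoid cleavage dioxygenase, the chloroplast sensor kinase CSK, AT5G42765, and SAC8, a phosphoinositide phosphatase. CSK, for example, had 1024 ± 26.7 normalised reads in the epl1ab-labelled libraries and 3033 ± 111 in Col-0. LIL3.2 had 5104 ± 244 in the epl1ab-labelled libraries and 14943 ± 499 in Col-0 (SD, n = 3 each).

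EPL1B had no partners as close, but only 467 of the 3524 genes listed higher had a larger log2 fold change. Its nearest genes, at distances of 0.242 to 0.707, were the cytochrome P450 gene CYP71B13, MEA, AT4G19430, AT1G67148 and AIG1. MEA, the Polycomb group histone methyltransferase MEDEA of the seed, had 248.5 ± 40.6 normalised reads in the epl1ab-labelled libraries and 9.43 ± 1.16 in Col-0. CYP71B13 had 1553 ± 104 in the epl1ab-labelled libraries and 70.2 ± 6.07 in Col-0 (SD, n = 3 each). All 5 lay at lower levels than EPL1B in both genotypes. Counting noise adds to the distances of those with few reads: MEA, AT4G19430 and AT1G67148 had 26, 51 and 39 reads over the Col-0 libraries. CYP71B13 had 194 and AIG1 had 108. Nearest to YAF9B, at distances of 0.084 to 0.177, were the bZIP factor ATBZIP27, the potassium channel GORK, the RING-finger protein ATL16, the cytokinin response regulator ARR9 and the dirigent protein DIR23. ARR9 had 1686 ± 45.9 normalised reads in the epl1ab-labelled libraries and 682.4 ± 38.4 in Col-0 (SD, n = 3 each). These 5, chosen for a fold change near that of YAF9B, had log2 fold changes of 0.19 to 0.29 and missed the test under DESeq2 with size factors of the listed genes, as the shift of -1.11 makes them do.

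The fold changes of the 3 subunits were recomputed under other scalings, tests and sets of libraries. EPL1A stayed lower, between -2.67 and -0.87 on the log2 scale, and EPL1B stayed higher, between 3.46 and 5.26, with both passing the test in each of 13 alternatives. YAF9B stayed above 0, between 0.25 and 2.05, and passed in 12 of 13. Passing says little about the subunits, since the listed genes were selected on the same libraries. With TMM factors, edgeR called 2871 genes higher and 1774 lower of 4750 tested. DESeq2 called 3519 higher and 1806 lower of 5330 with the recovered factors, and 1585 and 1806 with its own size factors.

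**Figure D5:**
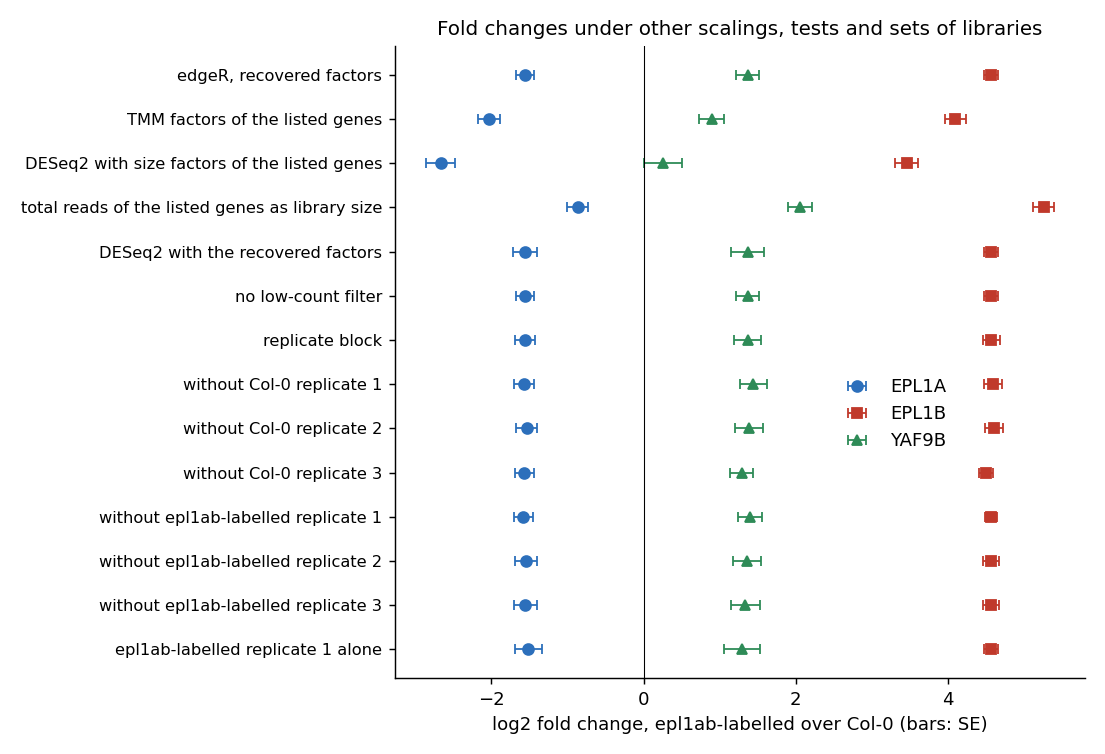
Log2 fold change of epl1ab-labelled over Col-0 (horizontal axis, bars are SE) of EPL1A (circles), EPL1B (squares) and YAF9B (triangles) under the scaling recovered from the authors' table and 13 alternatives. The scalings computed from the listed genes shift all 3 together, by -1.11 to 0.69, and leave YAF9B at 0.25 in one case, while leaving out single libraries moves each value by little.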

How the data were processed

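RNA-seq of 3 epl1ab-labelled and 3 Col-0 libraries was used. Per the labels' protocols, libraries came from a stranded kit after ribosomal RNA depletion, and were read as single ends of 50 bases. Per the submitters' processing notes, the build was TAIR10 and DESeq2 was used, with no version. Aligner, counter and strand setting were not given in the sources used here. Per the file headers, the authors deposited raw read counts per gene and library, p-values with false discovery rates, and log2 fold changes of epl1ab over Col-0. Tested on the values, the 5330 listed genes all changed at least 2-fold with a false discovery rate below 0.05, and genes outside these thresholds are not analysed here.

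Since selected genes give no footing for usual normalisation, library factors were recovered by least squares from the authors' deposited log2 fold changes over 1774 genes with at least 200 reads in each library (median absolute residual 0.00029). They were 1.16, 1.04 and 1.20 for epl1ab-labelled replicates 1 to 3 and 1, 0.931 and 0.820 for Col-0. The test on the counts was that of edgeR 4.0.16 (quasi-likelihood, expression filter, no block; limma 3.58.1, R 4.3.3) over 4773 genes, with Benjamini-Hochberg adjustment; SE was taken as the size of the log2 fold change divided by the root of F. The genes were selected on the same libraries, so its adjusted p-values describe the listed genes only. Rows whose locus did not match their position, 14 in number, were reassigned by exact start and end in RefSeq TAIR10.1. Alternatives used DESeq2 1.42.0, TMM, total reads, no filter, a replicate block and left-out libraries; the fit with epl1ab-labelled replicate 1 alone, which takes that library to vary like the Col-0 libraries, was added after seeing the data. The edgeR step was tested on simulated data. Sums and ratios used exact permutation tests (scipy 1.17.1); sequences were compared with Biopython 1.88. Gene lists and the genes named (subunits, listed members of the lists, listed neighbours among 10 genes each side, 5 nearest profiles with a pseudocount of 1) follow a written rule, and members and lists were chosen with earlier results of these data known. Counting errors cover reads only, as PCR copies were not marked.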

Additional observations from a re-analysis of the deposited data

How the results depend on the processing

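EPL1A and EPL1B kept their direction and passed the test in 13 of 13 alternatives each, which selection on the same libraries makes likely for a listed gene. YAF9B did so in 12: DESeq2 with size factors of the listed genes gave a log2 fold change of 0.25 ± 0.25 (SE, adjusted p = 0.371), and the number of subunits called higher was then 1 in place of 2. Relative to the recovered factors, TMM, DESeq2 size factors and total reads shift log2 fold changes by -0.47, -1.11 and 0.69 by construction, and DESeq2 called 1585 of 5330 genes higher with its own size factors and 3519 with the recovered factors, while edgeR called 3012 of 4773. Leaving out 1 library gave -1.58 to -1.54 for EPL1A, 4.50 to 4.61 for EPL1B and 1.29 to 1.44 for YAF9B. The summed EPL1 level kept its direction in 10 alternatives (log2 difference 2.87 to 4.67) and the EPL1B to EPL1A ratio in 7 (6.07 to 6.17), where the exact p cannot pass 0.05. Of 325 values for 25 other named genes, 315 kept direction and call, 10 missed the threshold and 0 reversed; PSBR missed it with total reads (-0.31, adjusted p = 0.103).

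With a replicate block, EPL1A was at -1.56, EPL1B at 4.57 and YAF9B at 1.37, all still called. Deviations of same-numbered libraries had correlations of -0.277, -0.0441 and -0.214. With so few libraries a group, the deviations depend on one another, so these values cannot decide whether the numbers pair the libraries. The tables limit depth: 422 EPL1A reads lay in the epl1ab-labelled libraries and 199 YAF9B reads in Col-0, against 57763 and 1988 of EPL1B in the epl1ab-labelled and Col-0 libraries.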
